A study of Oryctolagus cuniculus with 12 samples.

Results

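In rabbit conjunctiva after glaucoma surgery, 10 keratin genes were followed, out of the 58 keratin rows and of the 20566 genes of the deposited gene table. They were KRT4 and KRT13, KRT7 and KRT19, KRT8 and KRT18, KRT5, KRT14, and KRT15, and KRT16. Of these, 7 have a row under their own symbol. The other 3 were found by the description of their row, which is LOC100344183 for KRT13, LOC100344434 for KRT19, and LOC100344686 for KRT14. A RefSeq gene table of another rabbit assembly gave the symbols KRT13 and KRT19 for the first 2 of these gene IDs, whereas KRT14 rests on the description alone. All libraries came from female Japanese white rabbits 12 to 14 weeks of age. Trabeculectomy with mitomycin C was performed in the right eye, with betamethasone injected under the conjunctiva and an antibiotic ointment applied at the end, and the bleb conjunctiva was taken after 3 hours (TL-3h), 3 days (TL-3d), or 14 days (TL-14d). The control group was conjunctiva of left eyes, which were not operated on. Each of the 4 groups held 3 libraries, and neither the time at which control tissue was taken nor which control eye belonged to which operated rabbit was given in the sources used here.

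Keratins are the intermediate filament proteins of epithelial cells, and a filament is built from pairs of 1 type I and 1 type II keratin. KRT4 with KRT13 is the pair of the upper layers of wet stratified epithelia such as the conjunctiva. KRT7, KRT8, KRT18, and KRT19 are keratins of simple and glandular epithelia that conjunctival cells also carry. KRT5 with KRT14 is the pair of the basal layer, KRT15 is a basal keratin linked to quiescent cells, and KRT16 is known as a keratin switched on at wound edges. Trabeculectomy opens the conjunctiva at the limbus, drains aqueous humor into a space beneath it, and so places an incision in the epithelium that these keratins mark. Mitomycin C is a DNA crosslinker that limits proliferation.

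On the genome build OryCun2.0, the type II genes lay on chromosome 4, with KRT7 at 36310644 to 36319277, KRT5 at 36529461 to 36552660, KRT4 at 36745258 to 36751561, and KRT8 at 36813192 to 36820411. KRT18, although of type I, lay beside KRT8 at 36851056 to 36854289. The remaining type I genes lay together on chromosome 19, in the order KRT13 (42498938 to 42502897), KRT15 (42511124 to 42515108), KRT19 (42519207 to 42523018), KRT14 (42551201 to 42555451), and KRT16 (42570171 to 42573029).

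Total counts per library ranged from 27111276 to 38591374, and the 10 keratins took between 0.471% and 3.00% of them. The deposited counts are estimates that can hold fractions of a read, and between 75% and 100% of each member's values were fractions (over 0.001 from a whole number). How reads were divided among similar genes was not given in the sources used here, and neighbouring keratins share sequence, so a part of each value may belong to a related gene. CPM values below are estimated counts scaled to TMM-adjusted library sizes. TMM is a scaling that sets the bulk of genes equal between libraries. At TL-3h against controls the median log2 change of all genes was 0.02 with TMM and -0.47 with library size only, and 51.0% and 25.0% of the calls, respectively, were increases.

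Before the results, a library that stood apart has to be named. Across 14835 genes, TL-14d replicate 1 had a mean Pearson correlation of log2 CPM of 0.969 with the controls and of 0.914 with the other TL-14d libraries. Whether its label is right could not be settled from the sources used here, and every TL-14d value that includes it carries this doubt. For TL-14d against controls, the log2 changes of the 10 keratins and the counts of genes called are therefore given with and without it. The epithelium markers outside the keratins (EPCAM, CDH1, and 8 others, all 10 detected) summed to 2316 to 3671 CPM in controls, 4218 to 6387 CPM at TL-3h, 1819 to 4337 CPM at TL-3d, and 2363 to 3973 CPM at TL-14d. Fibroblast markers (8 of 8 detected, with collagen genes leading) summed to 12486 to 78197 CPM in controls, 105918 to 127226 CPM at TL-3h, 1576 to 66740 CPM at TL-3d, and 11619 to 58797 CPM at TL-14d. In each group the library with the highest fibroblast sum had the lowest epithelium sum, namely replicate 2 at TL-3h and replicate 3 in the other groups. Leukocyte markers (7 of 8 with a row) summed to 67.1 to 306 CPM in controls, 721 to 1747 CPM at TL-3h, 1026 to 1320.0 CPM at TL-3d, and 77.7 to 464 CPM at TL-14d. The part of these differences in the keratin results was not tested. In bulk tissue, fewer cells of a type and less RNA per cell cannot be told apart. The libraries are separate samples by their labels, and the p-values measure only the spread between them.

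Levels were compared between genes only per length, as FPKM, which are counts divided by transcript width and library depth. The KRT5 gene row is divided by the joined width of its transcript models, so the sum of the FPKM of its 2 models was used for its level. In controls KRT4 was highest with 1463 ± 621 FPKM (SD, n = 3), followed by KRT15 with 1277 ± 427 FPKM, KRT13 with 1188 ± 700.3 FPKM, KRT5 with 859 ± 333 FPKM, and KRT19 with 835 ± 182 FPKM. The libraries of each neighbouring pair in this order overlapped. Below them, each separate from the next without overlap, lay KRT7 with 294 ± 94.7 FPKM, KRT8 with 154 ± 7.54 FPKM, KRT14 with 109.7 ± 24.1 FPKM, KRT18 with 27.3 ± 4.92 FPKM, and KRT16 with 0.140 ± 0.0525 FPKM. In the unoperated conjunctiva, the conjunctival pair and the basal keratins KRT15 and KRT5 were thus among the leading members, whereas the basal keratin KRT14 was low and the wound keratin KRT16 was near its detection limit. Set against the label, the tissue held the conjunctival pair at high level, while of the corneal keratins KRT12 was at 0.347 to 2.56 FPKM and KRT3 at 20.7 to 34.1 FPKM, and the mucus gene FCGBP of goblet cells at 45.5 to 170.4 FPKM in the same libraries. KERA, a gene of the corneal stroma, was at 89.2 to 698 CPM in controls and at 468 to 1265 CPM at TL-3h.

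**Figure D1:**
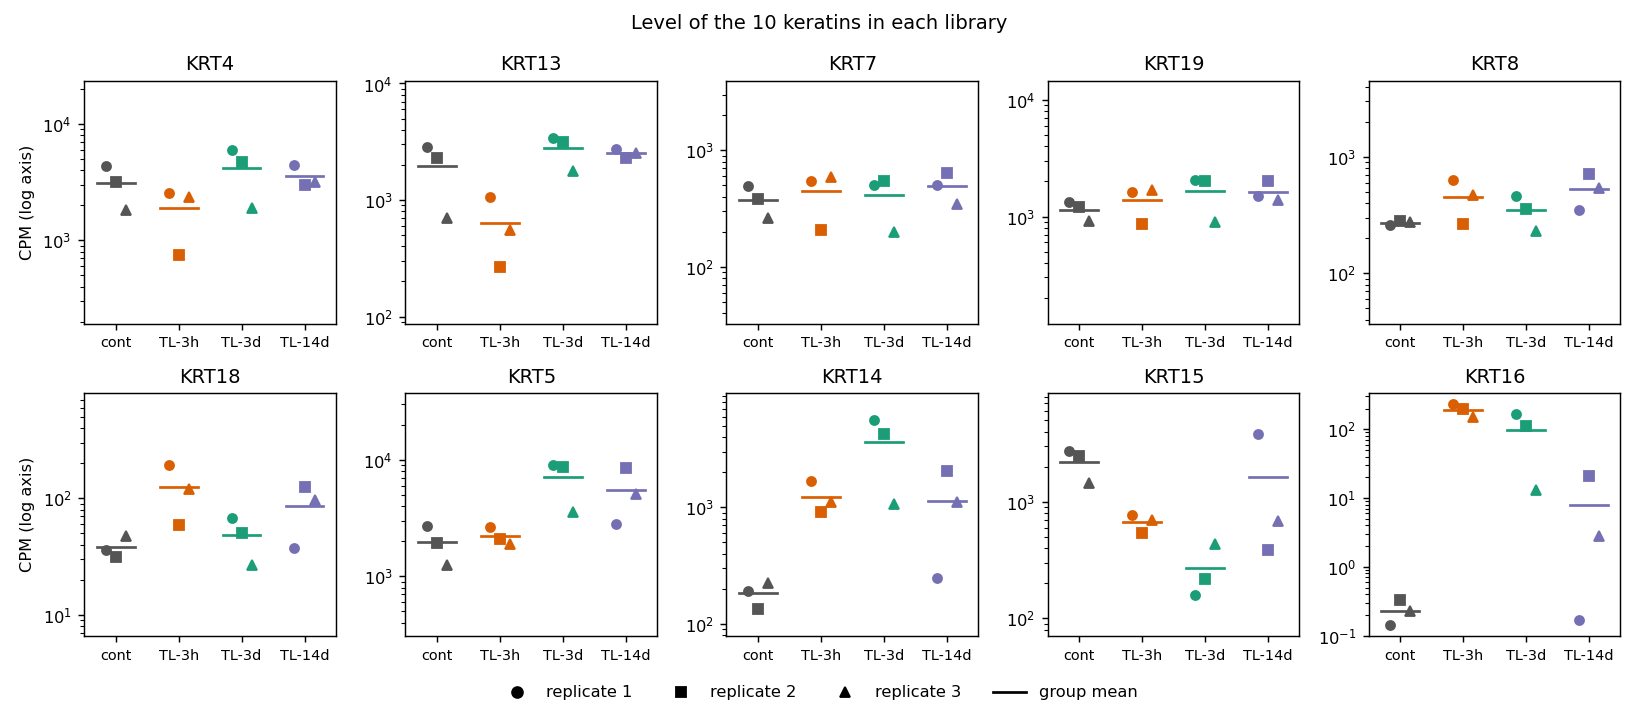
CPM on a log axis for each of the 10 keratins in the 12 libraries, with 1 panel per gene, 1 point per library (marker shape gives the replicate number), and a line at the group mean. KRT16 rose from under 0.4 CPM in controls to 153 to 230.1 CPM at TL-3h, while KRT15 stood at 1447 to 2743 CPM in controls and at 159 to 437 CPM at TL-3d.

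Of the 10 keratins, 4 changed at TL-3h against controls, with KRT14, KRT16, and KRT18 higher and KRT13 lower. Across all genes tested, 45.4% were called at this time, 23.2% higher and 22.2% lower, so that 4 of 10 is close to the general share. The libraries did not overlap with controls for 3 keratins that were higher and 1 that was lower, beside 28.9% and 28.3% of all genes. At TL-3d 4 keratins changed, with KRT5, KRT14, and KRT16 higher and KRT15 lower, against 17.6% of all genes (10.6% higher and 7% lower), and these 4 were also the ones without overlap, beside 23.8% of all genes higher and 21.7% lower. The general share at TL-3d depended on the test. It was 30.3% with DESeq2, where 4 keratins passed, and 57.4% with limma-voom, where 5 passed. At TL-14d none of the 10 keratins passed with all libraries, and neither did any other gene (0% called). The median log2 change of the 10 keratins was 0.26, 0.47, and 0.74 at the 3 times, beside 0.02, -0.00, and 0.02 for all genes. All 10 keratins passed the filter on low counts. Calls are from the quasi-likelihood test in edgeR with Benjamini-Hochberg adjusted p-values (q) over 14835 genes and a threshold of 0.05.

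**Figure D2:**
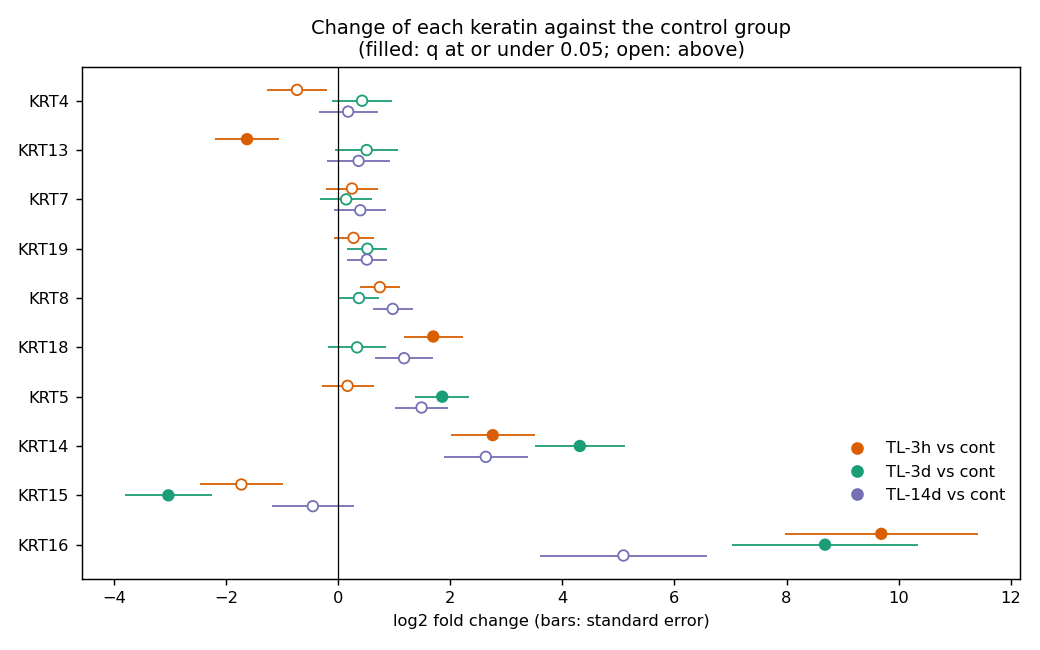
Log2 fold change of each keratin against the control group at TL-3h, TL-3d, and TL-14d from the edgeR fit, with bars of 1 standard error. Filled points passed the threshold of 0.05 on q and open points did not, and the filled points are KRT13, KRT18, KRT14, and KRT16 at TL-3h and KRT5, KRT14, KRT15, and KRT16 at TL-3d.

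KRT13, the type I keratin of the conjunctival pair, fell at TL-3h and was higher again at TL-3d. The control libraries held 2849, 2303, and 697 CPM, TL-3h held 1072, 266, and 555 CPM, TL-3d held 3419, 3136, and 1759 CPM, and TL-14d held 2718, 2275, and 2530.2 CPM. Control replicate 3 lay within the range of TL-3h, so these groups overlapped, while TL-3d and TL-14d lay wholly above TL-3h. KRT13 fell by 1.63 on the log2 scale at TL-3h (SE 0.57, q = 0.0393, 3.09-fold lower). This call was lost in 8 of 19 alternative settings. The q was 0.0949 with only these 2 groups in the fit, and 0.137 without control replicate 1, 0.1 without control replicate 2, 0.101 without TL-3h replicate 2, 0.101 without TL-3h replicate 3, 0.0545 without TL-3d replicate 2, 0.0501 without TL-14d replicate 2, and 0.0533 without TL-14d replicate 3. Without TL-3h replicate 1, the highest of its group, the change was -2.30 (q = 0.0157). At TL-3d its log2 change against controls was 0.51 (SE 0.56, q = 0.54), and at TL-14d it was 0.36 (SE 0.56, q = 0.848).

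Its type II partner KRT4 did not pass at any time. The libraries held 4352, 3192, and 1836 CPM in controls, 2536, 751, and 2347 CPM at TL-3h, 5975, 4743, and 1885 CPM at TL-3d, and 4472, 2982, and 3149 CPM at TL-14d. TL-3h replicate 2 was lowest of all 12 libraries, and the controls overlapped every other group. The log2 change was -0.74 at TL-3h (SE 0.53, q = 0.291), 0.43 at TL-3d (SE 0.53, q = 0.592), and 0.18 at TL-14d (SE 0.53, q = 0.925).

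KRT7 and KRT19, keratins of simple epithelia, did not pass at any time. KRT7 ranged from 265 to 491 CPM in controls, from 209 to 596 CPM at TL-3h, from 201 to 549.7 CPM at TL-3d, and from 350.1 to 637 CPM at TL-14d. KRT19 ranged from 912 to 1336 CPM in controls, from 857 to 1679 CPM at TL-3h, from 890.4 to 2043 CPM at TL-3d, and from 1385 to 2018 CPM at TL-14d. Only KRT19 at TL-14d was separate from controls, and its log2 change there was 0.51 (SE 0.36, q = 0.637). For KRT7 the log2 changes against controls were 0.25 (SE 0.46) at TL-3h, 0.14 (SE 0.46) at TL-3d, and 0.39 (SE 0.46) at TL-14d, with q between 0.7 and 0.85. For KRT19 they were 0.27 (SE 0.36, q = 0.566) at TL-3h and 0.52 (SE 0.36, q = 0.317) at TL-3d. The signs at TL-3h were negative for both with library size only, at -0.26 and -0.23.

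KRT18, the type I keratin of the simple pair, rose at TL-3h. It was at 36.0, 31.5, and 47.7 CPM in controls, at 194, 58.5, and 120.3 CPM at TL-3h, at 67.9, 50.6, and 26.9 CPM at TL-3d, and at 37.5, 126, and 96.8 CPM at TL-14d. All TL-3h libraries lay above all controls, whereas TL-3d and TL-14d overlapped them. The log2 fold change at TL-3h was 1.70 (SE 0.53, q = 0.0243, 3.24-fold higher). The call was lost in 5 of 20 alternatives, with q = 0.0769 for library size only, 0.0743 without control replicate 1, 0.0833 without control replicate 2, 0.111 without TL-3h replicate 1, and 0.0554 without TL-3h replicate 3. A second row annotated as keratin 18, LOC100008885, lies on chromosome 5 at 4466 to 5865 as a single block. With the counts of both rows added, the change at TL-3h was 1.37 (SE 0.40, q = 0.0182).

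KRT8, the type II partner of KRT18, did not pass against controls. It was at 259, 279, and 274 CPM in controls, at 629, 264, and 466 CPM at TL-3h, at 458, 359, and 233 CPM at TL-3d, and at 349, 709, and 537 CPM at TL-14d. The controls differed little among themselves, and all TL-14d libraries lay above them. Log2 changes were 0.74 (SE 0.36, q = 0.116) at TL-3h, 0.37 (SE 0.35, q = 0.479) at TL-3d, and 0.97 (SE 0.36, q = 0.414) at TL-14d. Without TL-3h replicate 2, which was at the control level, the TL-3h value was 0.96 (q = 0.0458).

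KRT14, the type I keratin of the basal pair, rose at both early times. The controls held 191, 134, and 224 CPM. TL-3h held 1694, 911, and 1108 CPM, TL-3d held 5562, 4276, and 1068 CPM, and TL-14d held 246, 2049.7, and 1112 CPM. Every operated library lay above every control, with TL-14d replicate 1 closest to them. KRT14 was 6.76-fold higher at TL-3h (log2 2.76, SE 0.75, q = 0.0132) and 19.9-fold higher at TL-3d (log2 4.31, SE 0.81, q = 0.0135). Without control replicate 2, q was 0.0536 at TL-3h and 0.056 at TL-3d, and without control replicate 1 it was 0.0515 at TL-3d. At TL-14d the change was 2.63 (SE 0.75, q = 0.346) with all libraries, 3.11 (q = 0.0276) without TL-14d replicate 1, and 1.89 (q = 0.978) without TL-14d replicate 2.

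KRT5, the type II partner of KRT14, rose at TL-3d. The libraries held 2695, 1936, and 1257 CPM in controls, 2624, 2075, and 1908 CPM at TL-3h, 9067, 8646, and 3595 CPM at TL-3d, and 2807, 8578, and 5121 CPM at TL-14d. All TL-3d and TL-14d libraries exceeded all controls, and TL-3h lay within the control range. KRT5 was 3.62-fold higher at TL-3d (log2 1.86, SE 0.48, q = 0.0291), and its log2 change was 0.17 at TL-3h (SE 0.46, q = 0.8), which was -0.35 with library size only. The TL-3d call was lost in 6 of 21 alternatives, with q from 0.0626 to 0.0944 without control replicate 1, 2, or 3 or without TL-3d replicate 1 or 2. At TL-14d the change was 1.49 (SE 0.47, q = 0.376) with all libraries and 1.80 (q = 0.0543) without TL-14d replicate 1.

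The KRT5 row joins 2 transcript models that behaved differently. The shorter model spans 36547069 to 36552652 on chromosome 4, and the longer one spans 36529461 to 36552660 and so reaches towards 3 neighbouring rows annotated as keratin 6A. The longer model took 0.37%, 1.39%, and 0.784% of the KRT5 counts in controls, 29.1%, 45.3%, and 34.1% at TL-3h, 17.4%, 14.7%, and 6.26% at TL-3d, and 0.57%, 3.92%, and 1.59% at TL-14d. Hence every TL-3h and TL-3d library had a larger share of this model than any control. Among 26082 transcripts tested, the longer model rose at TL-3h (log2 5.60, SE 1.14, q = 0.00506) and at TL-3d (log2 6.01, SE 1.16, q = 0.0286).

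The shorter model held 2624, 1885, and 1219 CPM in controls, 1755, 1077, and 1179 CPM at TL-3h, 7208, 7119.7, and 3312 CPM at TL-3d, and 2745, 7989, and 4918 CPM at TL-14d. Its log2 change against controls was -0.51 at TL-3h (SE 0.45, q = 0.446) and 1.62 at TL-3d (SE 0.46, q = 0.0673), so the TL-3d call for KRT5 did not hold for this model alone. Between TL-3h and TL-3d the shorter model rose (log2 2.14, SE 0.47, q = 0.00969), whereas the change of the longer model was 0.41 (SE 0.94, q = 0.806). The keratin 6A row LOC100351904, at 36518312 to 36522649, held 0.854, 2.23, and 2.16 CPM in controls, 188, 244, and 168 CPM at TL-3h, 607, 461, and 105 CPM at TL-3d, and 0.840, 151, and 24.0 CPM at TL-14d. Whether reads of keratin 6A entered the longer KRT5 model was not tested.

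**Figure D3:**
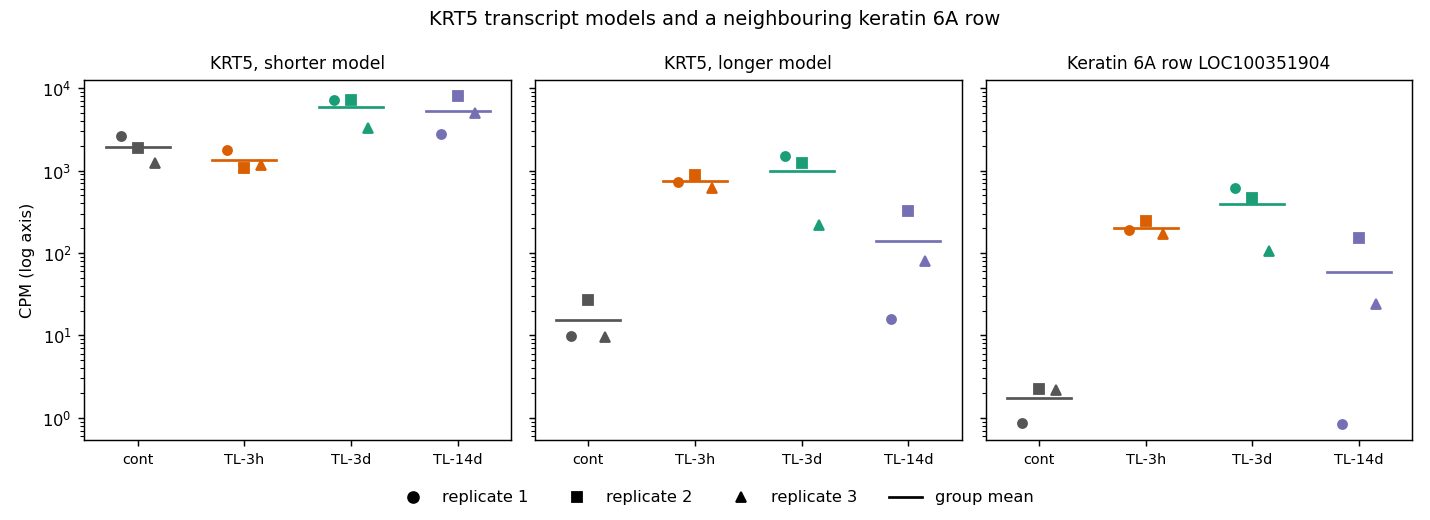
CPM on a shared log axis for the shorter and the longer transcript model of KRT5 and for the neighbouring keratin 6A row LOC100351904, with 1 point per library and a line at the group mean. The longer model and the keratin 6A row were both low in controls (9.63 to 26.6 CPM and 0.854 to 2.23 CPM) and high at TL-3h and TL-3d, while the shorter model was at 1077 to 1755 CPM at TL-3h.

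KRT15, the other basal type I keratin, fell at TL-3d, when KRT14 rose. The controls held 2743, 2469.7, and 1447 CPM, TL-3h held 774, 543, and 694 CPM, TL-3d held 159, 219, and 437 CPM, and TL-14d held 3798, 386, and 682 CPM. Both early groups lay wholly below the controls, and at TL-14d replicate 1 alone stood above them. KRT15 fell by 3.03 on the log2 scale at TL-3d (SE 0.78, q = 0.0291, 8.17-fold lower). That call was lost without control replicate 1 (q = 0.0816), control replicate 2 (q = 0.0768), TL-3d replicate 1 (q = 0.102), or TL-3d replicate 2 (q = 0.106). At TL-3h its change was -1.73 (SE 0.74, q = 0.0835), and q was 0.0256 with DESeq2, 0.0038 with limma-voom, 0.0307 with library size only, 0.00538 with only these 2 groups in the fit, 0.0074 without TL-14d replicate 1, and 0.0408 without TL-14d replicate 2. At TL-14d it was -0.45 (SE 0.73, q = 0.856) with all libraries and -2.06 (q = 0.0488) without TL-14d replicate 1. Without TL-14d replicate 2 the change was 0.013 and did not pass.

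The ratio of KRT14 to KRT15 sets both genes against each other within each library and does not depend on the scaling between libraries. On its own, this ratio cannot tell which gene moved. As FPKM, it was 0.0734, 0.0573, and 0.163 in controls, 2.31, 1.77, and 1.68 at TL-3h, 36.9, 20.6, and 2.58 at TL-3d, and 0.0684, 5.61, and 1.72 at TL-14d. KRT15 exceeded KRT14 in every control and in TL-14d replicate 1, and KRT14 exceeded KRT15 in the other 8 libraries. This ratio was chosen after the values of both genes were seen and is given without a test.

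KRT16, the wound keratin, had the largest change of the 10. It was detected in every library, with 6, 13, and 9 counts in controls, or 0.142, 0.325, and 0.226 CPM. It held 230.1, 197, and 153 CPM at TL-3h, 167, 109.8, and 12.9 CPM at TL-3d, and 0.168, 20.9, and 2.77 CPM at TL-14d. The TL-3h and TL-3d libraries were all far above the controls, and TL-14d ran from the control level in replicate 1 to 20.9 CPM in replicate 2. KRT16 was 827-fold higher at TL-3h (log2 9.69, SE 1.72, q = 0.00138) and 412-fold higher at TL-3d (log2 8.69, SE 1.67, q = 0.0139). The TL-3h call held in all alternatives, and the TL-3d call was lost without control replicate 1 (q = 0.0566) or control replicate 2 (q = 0.0557). At TL-3d the change was 8.04 (q = 0.0451) without TL-3d replicate 1. At TL-14d the change was 5.09 (SE 1.48, q = 0.346) with all libraries, 5.66 (q = 0.0314) without TL-14d replicate 1, and 2.66 (q = 0.978) without TL-14d replicate 2. The folds carry the error of a few control counts, so their exact size is loose.

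At TL-14d, then, 0 of 14835 genes passed in edgeR with all libraries, while 10.4% had an unadjusted p under 0.05, among them 5 of the 10 keratins (KRT8, KRT18, KRT5, KRT14, and KRT16). KRT19, KRT8, KRT5, and KRT14 lay wholly above controls, which holds for 6.03% of all genes. Without TL-14d replicate 1, KRT14, KRT16, and KRT15 passed, beside 4.74% of all genes. KRT5 (log2 1.80, q = 0.0543), KRT8 (1.20, q = 0.0937), KRT18 (1.53, q = 0.107), KRT19 (0.57, q = 0.443), KRT7 (0.38, q = 0.713), KRT13 (0.30, q = 0.821), and KRT4 (-0.030, q = 0.984) did not. With all libraries, 2 keratins (KRT14 and KRT16) passed by DESeq2, beside 2.49% of all genes. By limma-voom 5 passed (KRT8, KRT18, KRT5, KRT14, and KRT15), beside 10.5%, so KRT14 alone passed by both.

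As shares of the summed FPKM of the 10 keratins, the make-up of each library can be set side by side without scaling between libraries. KRT4 and KRT13 together made up 46.1%, 43.8%, and 33.2% in controls, 27.4%, 15.2%, and 26.3% at TL-3h, 33.4%, 32.2%, and 36.2% at TL-3d, and 41.4%, 26.5%, and 37.7% at TL-14d. KRT5 and KRT14 together made up 15.8%, 14.2%, and 17.7% in controls, 32.3%, 42.8%, and 27.3% at TL-3h, 50.2%, 49.6%, and 41.2% at TL-3d, and 15.3%, 47.7%, and 36.5% at TL-14d. In all TL-3h and TL-3d libraries the basal pair therefore held a larger share than in any control, and TL-14d replicate 1 lay within the control range. With the shorter KRT5 model alone the share of the basal pair at TL-3h was 28.9%, 35.2%, and 23.5%, still above all controls. KRT15 alone went from 19.3%, 21.6%, and 21.6% in controls to 0.628%, 0.987%, and 4.67% at TL-3d. KRT16 reached at most 3.57%, in TL-3h replicate 2.

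**Figure D4:**
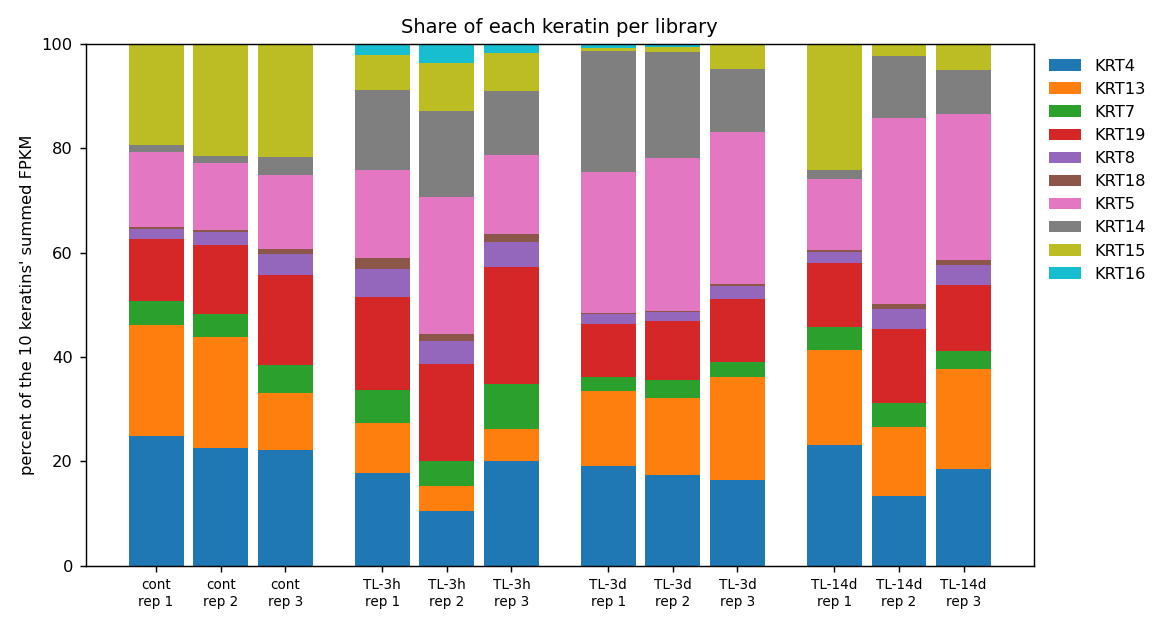
Share of each keratin in the summed FPKM of the 10 keratins, as stacked bars in percent with 1 bar per library, where the level of KRT5 is the sum of its 2 transcript models. KRT15 took 19.3% to 21.6% in controls and 0.628% to 4.67% at TL-3d, while KRT14 took 1.23% to 3.52% in controls and 12.3% to 16.4% at TL-3h.

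The order of levels also differed. At TL-3h KRT19 was highest with 728 ± 253 FPKM (SD, n = 3), followed by KRT5 with 675 ± 115 FPKM, KRT4 with 632 ± 336 FPKM, and KRT14 with 538 ± 179 FPKM, each of the first 3 overlapping with the next. The place of KRT5 there rests on its longer model, since its shorter model alone was at 442 ± 122 FPKM, below KRT4 and KRT14. At TL-3d KRT5 was highest with 3106 ± 1366 FPKM, ahead of KRT14 with 2229 ± 1437 FPKM and KRT4 with 1980.0 ± 1013 FPKM, which overlapped too. KRT15, second in controls, was eighth at TL-3d with 155 ± 79.4 FPKM. At TL-14d KRT5 (2411 ± 1288 FPKM) and KRT4 (1656 ± 384 FPKM) led.

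Because filaments pair a type II with a type I keratin, the ratio of partners was tested across the 4 groups for 5 pairs. An exact permutation test over all 15400 partitions of the libraries was applied to the log2 ratio of FPKM (pseudocount 0.1), with p adjusted over the 5 pairs, and 6.494e-05 is the smallest p it can give. The ratio differed between groups for 4 pairs. KRT7 to KRT19 did not pass, with group means between -1.92 and -1.54 (exact p = 0.222, adjusted 0.222), which does not show that the ratio was constant.

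The KRT5 to KRT14 ratio was 1.95 ± 0.78 (SD, n = 3) in controls, -0.57 ± 0.29 at TL-3h, -0.28 ± 0.54 at TL-3d, and 1.16 ± 0.80 at TL-14d (exact p = 0.00831, adjusted 0.0208). All TL-3h and TL-3d libraries lay below all controls. With the shorter KRT5 model in place of the gene row, the adjusted exact p was 0.00682. The level of these ratios depends on the width by which the KRT5 row was divided, whereas the differences between groups do not.

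The KRT5 to KRT16 ratio was 10.79 ± 0.75 in controls, 2.08 ± 0.12 at TL-3h, 5.28 ± 1.23 at TL-3d, and 9.41 ± 2.21 at TL-14d (exact p = 0.00039, adjusted 0.00195). TL-3h was the lowest and tightest group. In controls KRT16 was at 0.0925, 0.196, and 0.131 FPKM and in TL-14d replicate 1 at 0.0959 FPKM, near the pseudocount of 0.1. The level and spread of this ratio in those libraries therefore depend on the pseudocount. The KRT8 to KRT18 ratio was 2.50 ± 0.31 in controls, 1.60 ± 0.24 at TL-3h, 2.56 ± 0.19 at TL-3d, and 2.39 ± 0.42 at TL-14d (exact p = 0.0221, adjusted 0.0369). The KRT4 to KRT13 ratio was 0.45 ± 0.50 in controls, 1.23 ± 0.43 at TL-3h, 0.13 ± 0.36 at TL-3d, and 0.10 ± 0.21 at TL-14d (exact p = 0.0336, adjusted 0.042). In the conjunctival pair the TL-3h mean was highest, although control replicate 3, at 1.02, lay within the TL-3h range. Each of the 12 libraries was left out in turn. KRT5 to KRT16 passed every time, KRT5 to KRT14 failed in 1 case (adjusted exact p = 0.0516 without TL-3h replicate 1), KRT8 to KRT18 failed in 7 cases, and KRT4 to KRT13 failed in 9 cases, with adjusted exact p up to 0.112 and 0.121.

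**Figure D5:**
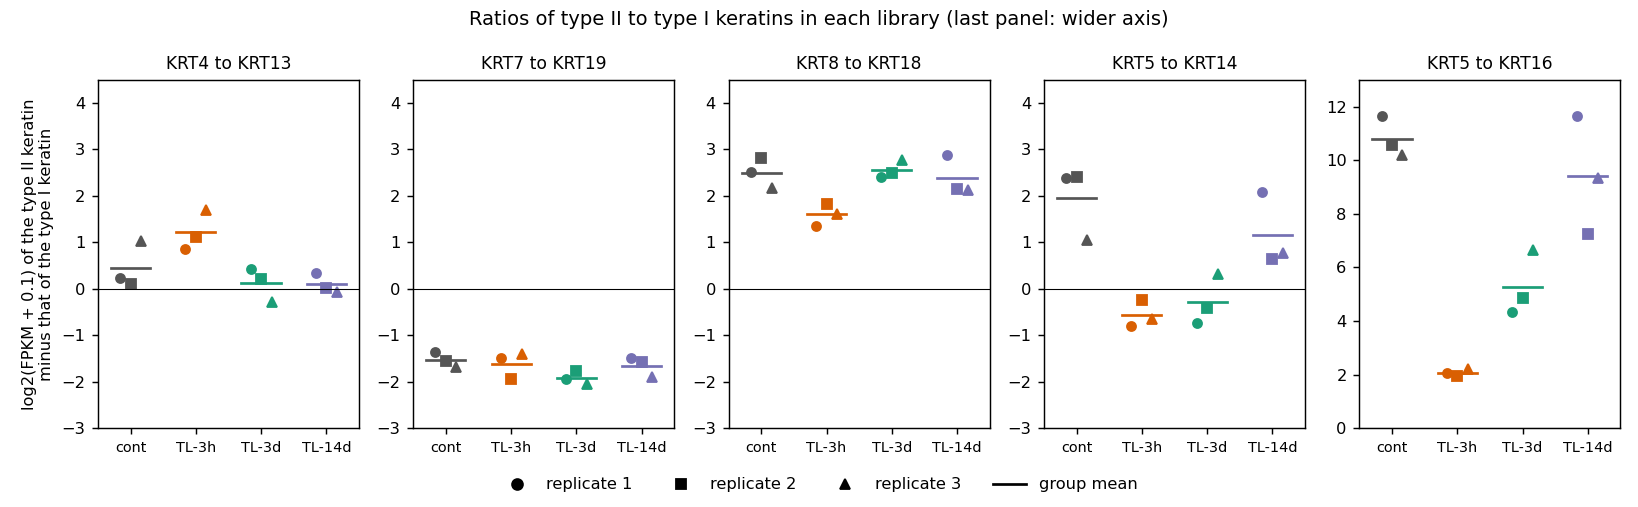
Log2 ratio of FPKM (pseudocount 0.1) of a type II to a type I keratin for 5 pairs, with 1 point per library and a line at the group mean, where the panel of KRT5 to KRT16 has a wider axis than the others. The KRT5 to KRT14 ratio was above 1 in all controls and below 0.4 in all TL-3h and TL-3d libraries.

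Keratin levels were also set against the summed CPM of the 10 epithelium markers, as a measure within each library that was chosen after the data were seen and is not tested. At TL-3h these markers did not move as one, since CLDN4 (log2 2.71, q = 0.000955), EPCAM, CLDN7, and CDH3 rose and ESRP1 and ESRP2 fell. Relative to them at TL-3h, KRT13 was 5.59-fold, KRT15 5.91-fold, and KRT4 3.11-fold lower than in controls, without overlap of the libraries. KRT7, KRT19, and KRT5 were also lower without overlap, by 1.59-fold, 1.55-fold, and 1.55-fold. CLDN4 carried most of the rise of the marker sum, and with CLDN4 left out of the sum these 3 overlapped with controls (1.07-fold, 1.04-fold, and 1.05-fold lower), while KRT13 (3.76-fold), KRT15 (3.98-fold), and KRT4 (2.09-fold) were still lower without overlap. KRT16 was 453-fold and KRT14 3.47-fold higher, again without overlap, while KRT18 (1.58-fold higher) and KRT8 (1.17-fold lower) overlapped. On this measure 48.9% of all genes were lower and 6.34% higher without overlap at TL-3h, and without CLDN4 32% and 13.1%, so 6 of 10 lower is close to the general share. At TL-3d KRT15 was 6.35-fold lower and KRT14 16.0-fold, KRT5 3.43-fold, and KRT16 319-fold higher, all without overlap, and so were KRT13 (1.46-fold) and KRT19 (1.34-fold), beside 7.09% of all genes lower and 12.2% higher. At TL-14d every keratin overlapped with controls on this measure, but with CLDN4 left out KRT5 (2.73-fold) and KRT7 (1.22-fold) lay above all controls, beside 1.22% of all genes. Without TL-14d replicate 1, KRT14 (7.95-fold), KRT5 (3.53-fold), KRT16, KRT18, KRT8, KRT19, and KRT7 lay above all controls, KRT15 lay below them (3.65-fold lower), and KRT4 and KRT13 still overlapped. Of all genes, 11% were higher and 8.78% lower without overlap when these 2 libraries were set against the 3 controls.

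Between the operated groups, KRT13 and KRT5 changed from TL-3h to TL-3d, and KRT13, KRT5, and KRT16 differed between TL-14d and TL-3h. From TL-3h to TL-3d, 2 of 10 keratins passed, both higher, against 37.3% of all genes (18.4% higher). KRT13 rose by 2.13 on the log2 scale (SE 0.58, q = 0.016, 4.39-fold) and KRT5 by 1.69 (SE 0.48, q = 0.019, 3.23-fold). The call was lost in 1 of 19 alternatives for KRT13 and in 5 of 21 for KRT5. At TL-14d relative to TL-3h, 3 of 10 passed, against 45.3% of all genes (22.9% higher and 22.3% lower), with KRT13 higher (1.99, SE 0.58, q = 0.0179), KRT5 higher (1.32, SE 0.47, q = 0.0427), and KRT16 lower (-4.60, SE 1.33, q = 0.0176). Here KRT5 lost its call in 8 of 21 alternatives, KRT13 in 2 of 19, and KRT16 in 1 of 19. Without TL-14d replicate 1, 3 keratins also passed, against 41.9% of all genes. For the shorter KRT5 model the TL-14d change from TL-3h was 1.96 (q = 0.011), and for the longer one it was -2.40 (q = 0.0979). No keratin passed between TL-14d and TL-3d, where 2.24% of all genes did and 3 keratins (KRT14, KRT15, and KRT16) had an unadjusted p under 0.05, beside 22.6% of all genes. These comparisons share libraries with those against controls. Tested over the 3 times together, KRT16 (q = 0.0034), KRT14 (q = 0.00776), KRT5 (q = 0.0153), KRT15 (q = 0.0289), and KRT13 (q = 0.0442) passed, as did 52.4% of all genes, and KRT18 did not (q = 0.0564). In this test KRT13 lost its call in 8 of 18 alternatives and KRT15 in 6 of 18, while KRT16, KRT14, and KRT5 kept theirs. KRT18 passed in 4 of 18, among them DESeq2 (q = 0.0159) and limma-voom (q = 0.00462).

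Of the 48 other keratin rows, 28 passed the filter on low counts. At TL-3h 6 were called higher and 1 lower, at TL-3d 4 were called higher, and at TL-14d none was called. Without TL-14d replicate 1, 7 of 29 tested were higher at TL-14d, among them KRT17, KRT3, and 2 of the keratin 6A rows, beside 4.74% of all genes called in either direction. Of all genes, 45.4% were called at TL-3h and 17.6% at TL-3d, so the count of 7 of 28 at TL-3h lies below the general share and that of 4 of 28 at TL-3d near it. The median log2 change of the 28 rows was 0.49 at TL-3h, 1.03 at TL-3d, and 0.99 at TL-14d, beside 0.02, -0.00, and 0.02 for all genes. Among the 8 with the highest mean CPM, KRT17, a keratin of wounded and appendage epithelium that neighbours KRT16, was at 12.3, 17.8, and 21.6 CPM in controls, 601, 198, and 532 CPM at TL-3h, 725, 1219, and 328 CPM at TL-3d, and 14.4, 2317, and 779 CPM at TL-14d. It rose 25.8-fold at TL-3h (q = 0.0146) and 44.0-fold at TL-3d (q = 0.0263).

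The 3 keratin 6A rows, whose protein is the usual type II companion of KRT16 and KRT17 in wounds, summed to 32.2, 37.6, and 19.5 CPM in controls and to 472, 509, and 368 CPM at TL-3h. Of these, LOC100351904 rose at both early times (log2 6.84, q = 0.00475 and 7.81, q = 0.0159) and so did LOC100351653 (log2 4.69, q = 0.0255 and 5.58, q = 0.0362). LOC100351399 had q of 0.0948 and 0.0656. At TL-3d the 3 rows summed to 1318, 1041, and 279 CPM, with replicate 3 again lowest, and at TL-14d to 2.42, 474, and 138 CPM.

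KRT3, a keratin of corneal epithelium, was at 82.9, 55.6, and 53.4 CPM in controls, 39.1, 18.2, and 21.1 CPM at TL-3h, 303, 317, and 288 CPM at TL-3d, and 83.9, 656, and 225 CPM at TL-14d. It rose at TL-3d (log2 2.24, SE 0.61, q = 0.0347). KRT12, its usual partner in the cornea, stayed below 8 CPM except in TL-14d replicate 2, where it reached 139 CPM. KRT23 rose at TL-3h (log2 2.88, q = 0.00942), while KRT78 had q = 0.181 at that time. KRT1 and KRT10, the pair of cornified skin, were at no more than 6.84 and 15.0 CPM in any library.

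Genes that anchor keratin filaments to desmosomes and hemidesmosomes rose in some cases and fell in others. Of 16 tested at TL-3h, 2 rose (ITGA6, log2 2.90, q = 0.00166, and DSG3, log2 1.58, q = 0.0268) and 3 fell (EVPL, log2 -3.19, q = 0.000661, DSG1, log2 -1.63, q = 0.00954, and DSC1). Among all genes 23.2% were called higher and 22.2% lower at this time, so the 5 of 16 called lie below the general share. At TL-3d ITGA6 (log2 2.27, q = 0.0206) and DSG3 (1.90, q = 0.0322) were higher as well, and PNN was lower. The median of the 16 was -0.46 at TL-3h and 0.17 at TL-3d, beside 0.02 and -0.00 for all genes. The desmosome plaque gene DSP (log2 -0.87, q = 0.0662 at TL-3h), the hemidesmosome gene COL17A1 (-0.40, q = 0.464), and the desmosomal cadherin DSC2 (-0.56, q = 0.207) did not pass.

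Genes of the cornified envelope and of wounded epithelium were counted next. Of 24 listed, 18 had a row and 13 were tested. At TL-3h 9 of these rose and none fell, with a median log2 change of 2.77, and at TL-3d 4 rose and none fell, with a median of 1.82. Of all genes, 23.2% were called higher at TL-3h and 10.6% at TL-3d, with medians of 0.02 and -0.00. TGM5, SBSN, KRTDAP, and CDSN passed at neither time. SFN, an epithelial 14-3-3 protein, rose at TL-3h (log2 2.77, q = 0.00228) and TL-3d (1.99, q = 0.0305). S100A8, an alarmin of neutrophils and wounded keratinocytes, rose at TL-3h (log2 5.97, q = 0.0159), when CSF3R, a neutrophil receptor, rose as well (log2 6.12, q = 0.00484). S100A10 rose at both times (1.37, q = 0.00499 and 1.48, q = 0.0169) and S100A11 at TL-3h (0.73, q = 0.0154). IVL, TGM1, CNFN, SPRR3, and S100A9 were the others that rose at TL-3h.

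Of 17 epithelial transcription factors tested at TL-3h, 6 fell (PAX6, GRHL1, GRHL2, GRHL3, TFAP2A, and BARX2) and 2 rose (KLF4 and OVOL1), with a median log2 change of -0.58. Of all genes, 22.2% were called lower and 23.2% higher, with a median of 0.02. BARX2, a homeobox factor, fell at TL-3h (log2 -2.49, q = 0.000848) and TL-3d (-1.63, q = 0.0237), and PAX6, the master regulator of eye development, fell at TL-3h (-1.70, q = 0.00693). At TL-3d BARX2 was the only one lower and OVOL1 the only one higher. EHF (-0.44, q = 0.334), ELF3 (-0.58, q = 0.21), and KLF5 (-0.62, q = 0.194), which had the highest mean CPM of the tested factors, did not pass at TL-3h. For these 3 lists, no gene passed at TL-14d either with all libraries or without TL-14d replicate 1.

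The genes outside the keratins whose log2 CPM over the 12 libraries was most like that of a member were listed for KRT13, KRT7, KRT5, and KRT16, by Pearson's r and without a test, since depth, scaling, and tissue make-up are shared by all genes of a library. For KRT13 they were ALDH4A1 (r = 0.983), COG4 (0.970), and SEMA4A (0.968). For KRT7 they were ST14 (0.930), CCNH (0.919), and ANKMY2 (0.908). For KRT5 they were FAM46B (0.963), LTA4H (0.944), and MAPK11 (0.942). For KRT16 they were TMPRSS11F (0.994), LOC108176138 (0.986), and PSMB3 (0.985), of which TMPRSS11F ranged from 2.13 to 2.91 CPM in controls and from 53.6 to 83.1 CPM at TL-3h.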

How the data were processed

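Conjunctival RNA of 12 libraries was analysed, 3 per group, as placed by their labels. The reads were 150 bp paired ends from stranded libraries. Per the paper's methods and the submitters' processing notes, the authors mapped them to OryCun2.0 with STAR 2.6.0c and deposited estimated counts per gene and transcript, of which 22.7% of the gene values were fractions (tolerance 0.001 from a whole number), together with FPKM values divided by transcript width and depth. Deposited counts had not been scaled.

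Here counts were rounded to whole numbers, and filterByExpr (minimum count 10, minimum total 15) kept 14835 of 20566 genes and 26082 of 38710 transcripts. All libraries entered 1 TMM-normalized quasi-likelihood fit in edgeR 4.0.16 (R 4.3.3) without covariates. The q-values are Benjamini-Hochberg adjusted p-values across the genes tested, with a threshold of 0.05. A standard error is the size of the log2 fold change divided by the root of F. FPKM values were used for levels between genes and for partner ratios (Python 3.11.15). The members and gene lists were chosen with earlier results of these data known, so they are no independent evidence. The text names all members, the 8 other keratins and the 4 genes per list with the highest mean CPM, the 3 genes most like KRT13, KRT7, KRT5, and KRT16, and, after seeing their values, further genes that passed in a list and KRT1, KRT10, and KRT12.

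On simulated counts of 14835 genes for TL-3h against controls, 61 of 100 genes changed 4-fold and 80 of 100 changed 8-fold were recovered, beside 4 false calls, and with no change 0 genes were called. No pair within a group was a copy of the other, with counts differing by at least 77.2 times their counting variance. A count of 0 allows up to 3 counts per library, or 0.0712 to 0.124 CPM. These floors cover counting error only. Alternatives were DESeq2 1.42.0 and its size factors, library size only, no filter, limma-voom (limma 3.58.1) with sample weights, a replicate block, only the 2 groups compared, other pseudocounts, and each library left out.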

Additional observations from a re-analysis of the deposited data

Results flagged for a closer look

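In all, 5 differences between the effects at different times passed the test of the difference itself in edgeR, with Benjamini-Hochberg adjusted p-values over 14835 genes. Of all genes, 37.3% passed between TL-3d and TL-3h and 45.3% between TL-14d and TL-3h. The 2 of 10 and 3 of 10 keratins that passed thus lie below the general share. KRT13 differed between TL-3d and TL-3h by a log2 fold change of 2.13 and between TL-14d and TL-3h by 1.99, higher in 3 of 3 libraries at both later times than in any TL-3h library. KRT5 differed by 1.69 and 1.32, respectively, also without overlap of the libraries. KRT16 at TL-14d was lower than at TL-3h by a log2 fold change of -4.60, again in all 3 libraries. Such a lack of overlap was not particular to the genes that passed, and its share over all genes is not given for these comparisons. KRT4 also lay wholly above TL-3h at TL-14d (adjusted p = 0.188), and KRT15 wholly below it at TL-3d (adjusted p = 0.189). Without TL-3h replicate 3 the adjusted p of KRT13 was 0.0545 at TL-3d and 0.0575 at TL-14d, and without TL-3h replicate 2 it was 0.0516 at TL-14d, while without TL-3h replicate 1 the log2 values were 2.79 (adjusted p = 0.00982) and 2.65 (adjusted p = 0.00958). For KRT5 at TL-3d it was between 0.0579 and 0.0627 without TL-3h replicate 2 or 3 or TL-3d replicate 1 or 2, and 0.806 for its longer transcript model alone. For KRT5 at TL-14d it was between 0.0558 and 0.164 without any of control replicate 2, the 3 TL-3h libraries, TL-3d replicate 2, and TL-14d replicates 2 and 3, and the log2 value without TL-14d replicate 2 was 0.85. For KRT16 it was 0.0595 without TL-14d replicate 3. Without TL-14d replicate 2 the KRT16 value was -7.03 (adjusted p = 0.00363), and over all libraries left out in turn it ranged from -7.03 to -4.03.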

How the results depend on the processing

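The counts of keratins that passed against controls at TL-3h (4) and TL-3d (4) stayed within 1.5 times of these values with every alternative test, normalization, and filter. The share of all genes called was 45.4% and 17.6% in the main fit and varied more at TL-3d. By DESeq2 5 and 4 keratins passed, beside 51.1% and 30.3% of all genes. By limma-voom 6 and 5 passed, beside 57.5% and 57.4%, so the excess over the general share at TL-3d did not hold there. With DESeq2, 2 keratins passed at TL-14d against controls, 2 between TL-14d and TL-3d, and 4 between TL-3d and TL-3h, beside 2.49%, 12.5%, and 44.9% of all genes. With limma-voom these counts were 5, 3, and 6, and 8 over all times together, beside 10.5%, 23%, 53.9%, and 79.6% of all genes. With library size only, 4 passed between TL-3d and TL-3h, beside 42.5%. Leaving out single libraries gave 1 to 5 keratins for TL-3h and 0 to 4 for TL-3d against controls, 0 to 3 for TL-14d, 0 to 5 between TL-3d and TL-3h, 0 to 2 between TL-14d and TL-3d, 1 to 3 between TL-14d and TL-3h, 3 to 5 over all times, and 1 to 4 partner ratios. In the same order up to all times, the share of all genes called ranged from 34.9% to 48.1%, 2.37% to 25%, 0% to 4.74%, 26.1% to 41.2%, 0% to 3.87%, 36.2% to 45%, and 41.2% to 56.5%. The lowest count at TL-3h came without control replicate 2, and the 0 at TL-3d without control replicate 1 or 2. The highest count between TL-3d and TL-3h came without TL-14d replicate 1, and the 2 between TL-14d and TL-3d (KRT15 and KRT16) without TL-14d replicate 2.

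Signs reversed for values that had not passed, except that of KRT5 for TL-14d against TL-3h with its longer model. With library size only, KRT7, KRT19, and KRT5 were at -0.26, -0.23, and -0.35 at TL-3h, KRT7 and KRT8 at 0.38 and 0.11 for TL-3d against TL-3h, and KRT14 at 0.36 for TL-14d against TL-3h. With limma-voom, KRT4 was at -0.032 at TL-14d, and KRT7 at 0.17, -0.31, and -0.14 for TL-3d against TL-3h, TL-14d against TL-3d, and TL-14d against TL-3h. The shorter KRT5 model was at -0.51 at TL-3h and the longer one at -2.40 for TL-14d against TL-3h. Without single libraries, the log2 change ranged from -0.066 to 0.53 for KRT7 and -0.13 to 0.46 for KRT5 at TL-3h, from -0.10 to 0.47 for KRT7 at TL-3d, and, at TL-14d, from -0.11 to 0.49 for KRT4, -0.052 to 0.74 for KRT13, and -2.06 to 0.013 for KRT15. For TL-3d against TL-3h it ranged from -0.41 to 0.23 for KRT7. For TL-14d against TL-3h it ranged from -0.15 to 0.45 for KRT7, -0.031 to 0.59 for KRT8, -0.86 to 0.36 for KRT14, and -0.33 to 1.74 for KRT15, and for TL-14d against TL-3d from -0.60 to 0.092 for KRT4, -0.39 to 0.035 for KRT13, -0.081 to 0.50 for KRT7, and -0.31 to 0.18 for KRT19. The causes were not tested.

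With the replicate number as a block, 4, 4, and 0 keratins passed at TL-3h, TL-3d, and TL-14d, beside 46.8%, 18.3%, and 0% of all genes. No keratin call changed, and KRT19 alone changed sign, at 0.036 for TL-14d against TL-3d. The libraries share only a number. Of 18 same-number pairs, 8 had a correlation of deviations over 0.1, in a range from -0.16 to 0.526, and 9 of 12 libraries correlated best with their own number, which is a hint from the data and not from the design.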

Other observations

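Intermediate filament genes outside the keratins were measured beside them. Of 16 listed, 15 had a row and 12 were tested, and 3 rose at TL-3h with none lower, at a median log2 change of 0.61. Of all genes, 23.2% were called higher at that time, so 3 of 12 is near the general share. VIM, the filament of mesenchymal cells, rose at TL-3h (log2 2.08, adjusted p = 0.0456 in edgeR), LMNA, a nuclear lamin, rose by 1.72 (adjusted p = 0.000178), and NES, found in progenitor and activated vascular cells, by 3.31 (adjusted p = 0.0265). NES was also higher at TL-3d (3.61, adjusted p = 0.0438), whereas LMNB1 had an adjusted p of 0.188 at TL-3h. At TL-14d no gene of the list passed with all libraries, while NES was higher and GFAP lower without TL-14d replicate 1.

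Among markers of other cell types, the goblet cell gene FCGBP, which encodes a mucus protein, fell at TL-3h (log2 -2.20, adjusted p = 0.0162), while AGR2 and SPDEF did not pass (adjusted p = 0.0931 and 0.902). The 4 goblet cell markers with a row summed to 697 to 1735 CPM in controls, 237 to 1126 CPM at TL-3h, 587 to 1407 CPM at TL-3d, and 1167 to 2075 CPM at TL-14d. Of 4 endothelium markers, PECAM1 (log2 3.68, adjusted p = 0.0109) and CDH5 (2.46, adjusted p = 0.0401) rose at TL-3h, and VWF and KDR did not pass, beside 23.2% of all genes called higher. Of 7 leukocyte markers tested, 4 rose at TL-3h and 4 at TL-3d, beside 23.2% and 10.6% of all genes, and PTPRC, ITGB2, and CD68 passed at both times. No gene of the fibroblast, smooth muscle and pericyte, skeletal muscle, or Schwann cell markers passed against controls, and of 3 cornea markers KRT3 alone passed, at TL-3d, with all libraries in the fit. Without TL-14d replicate 1, the smooth muscle genes ACTA2 and TAGLN and the cornea marker KRT3 were higher at TL-14d than in controls, beside 4.74% of all genes called in either direction, and of the epithelium markers outside the keratins CDH3 was higher. The smooth muscle and pericyte markers summed to 24.7 to 124 CPM in controls, 232 to 253 CPM at TL-3h, 62.6 to 1161 CPM at TL-3d, and 24.6 to 1006 CPM at TL-14d, so that only TL-3h lay wholly above the controls. The Schwann cell markers summed to 5.40 to 13.1 CPM in controls, 4.94 to 13.4 CPM at TL-3h, 0.275 to 3.81 CPM at TL-3d, and 0.781 to 16.2 CPM at TL-14d. Skeletal muscle markers were at 249 CPM in control replicate 2 and 288 CPM in TL-3d replicate 3 and at most 6.42 CPM elsewhere.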
